A study of Rattus norvegicus with 2 samples.

Results

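The antioxidant and NRF2 target genes are 10 genes of oxidative stress defence, Hmox1, Nqo1, Gclc, Gclm, Txnrd1, Srxn1, Prdx1, Sod1, Sod2 and Cat. These genes were chosen by name for what they encode, with earlier results of these data known. They were examined in DRGs, where the SN cell bodies lie, of female Sprague-Dawley rats, 4 weeks old by the methods, 14 days after IP-B12 cells had been placed in the marrow of the right tibia. IP-B12 is a line of rat pulmonary carcinoma cells that destroys bone as it grows. RNA of DRGs from the inoculated side was hybridized to 1 array, and RNA of DRGs from the left side of the rats, which served as the control, to 1 array. The sources do not state how many rats were behind each array, and no sham inoculation of the left tibia is described, so tumor growth and the inoculation itself cannot be told apart. Of the 10 listed genes, 9 had at least 1 probe set that names no other gene, among 14217 genes that could be named in this way, on an Affymetrix expression array of the rat. Each transcript is read by a set of short probes, the probe set, whose brightness is combined into a single signal. The 9 genes had 13 probe sets of the 31042 on the array beside controls. Prdx1, which encodes a peroxiredoxin that removes hydrogen peroxide, is named only by 1 probe set that names other genes too, and no value is given for it.

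NRF2, the product of Nfe2l2, is a transcription factor that is held in the cytoplasm and marked for breakdown by KEAP1. Oxidants and electrophiles modify KEAP1, and NRF2 then enters the nucleus and binds antioxidant response elements together with a small MAF protein, while BACH1 occupies the same elements as a repressor. The genes switched on in this way make glutathione, reduce thioredoxin and peroxiredoxin, detoxify quinones and degrade heme. Superoxide dismutases and catalase remove superoxide and hydrogen peroxide and are part of the same defence, although they depend on NRF2 less strictly. In sensory ganglia both neurons and satellite glia rely on these enzymes.

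Every signal below is the MAS 5.0 intensity that the authors deposited, on a linear scale, and every log2 ratio is the tumor side over the control side. Neither side was replicated, so no error and no test can be given and each difference describes these 2 arrays. The median signal was 72.7 on the tumor-side array and 69.0 on the control-side array. For each gene the brightest probe set, by mean log2 signal over both arrays, was taken, and the gene passed the signal rule if its higher signal reached the median of that array, which 9695 genes did. Their median log2 ratio was 0.08, and 70.9% of them had a ratio above 0, with the tumor-side array slightly brighter as deposited. All 9 genes passed the rule, and in all 9 both signals were at or above the array medians, so none passed through 1 side alone. All 10 measured SN markers, such as Prph, the gene of peripherin, and Calca, the gene of CGRP, passed it too. In whole ganglia, fewer cells of a type and less RNA per cell cannot be told apart.

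The core of the antioxidant response element was looked for as the letters TGACNNNGC, where N is any base, on both strands of the promoter windows that RefSeq gives for the rat assembly GRCr8, from 250 bases before to 50 bases after each start. Windows were found for 9 of the 10 listed genes, all but Hmox1, and 4 of these 9 held the core (44.4%). The share was 13.1% of all 27457 genes with a window, 15.3% of the 8101 above the signal rule and 12.1% of all 33469 windows. Because the list was chosen for NRF2 targets, which NRF2 reaches through such elements, the larger share can follow from the choice itself. The stretches that hold it are shown because they tell which of the genes carry the letters that NRF2 is known to read, and the capitals mark the core, which in all 4 lies on the strand opposite to the gene and therefore reads as its reverse complement.
Gclm, chr2:213031937-213031997, + strand: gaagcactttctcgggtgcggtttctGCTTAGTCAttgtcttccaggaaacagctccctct
Prdx1, chr5:135383745-135383805, + strand: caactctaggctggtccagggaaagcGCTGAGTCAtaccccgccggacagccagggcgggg
Txnrd1, chr7:22755948-22756008, - strand: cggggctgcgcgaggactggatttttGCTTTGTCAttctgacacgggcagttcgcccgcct
Sod2, chr1:50050169-50050229, - strand: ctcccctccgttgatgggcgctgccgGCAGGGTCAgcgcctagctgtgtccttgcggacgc
The core began 172 bases before the start in Gclm, 135 in Prdx1, 78 in Txnrd1 and 35 in Sod2. Txnrd1 has another window without the core, and no match was found in the windows of Nqo1, Gclc, Srxn1, Sod1 and Cat, which says only that these letters are not in those windows. A match is a description of the sequence and not a measured binding site.

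None of the 9 genes differed by a fold of 1.5 between the sides. Hmox1 differed most, 1.34 times higher on the tumor side, followed by Sod2 at 1.15 times, while 6 of the 9 lay within 5% of equality. Among all genes above the signal rule, 1.19% were at least 1.5 times higher and 0.743% at least 1.5 times lower, so that a count of 0 of 9 in either direction is near that background. Hmox1 was also the only 1 of the 9 that was at least 25% higher on the tumor side, where 7.54% of all genes were, and none was higher by 25% on the control side, where 3.01% were. The median log2 ratio of the 9 genes was 0.04, below the 0.08 of all genes, with 3 of them above that median gene and 6 below it.

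**Figure D1:**
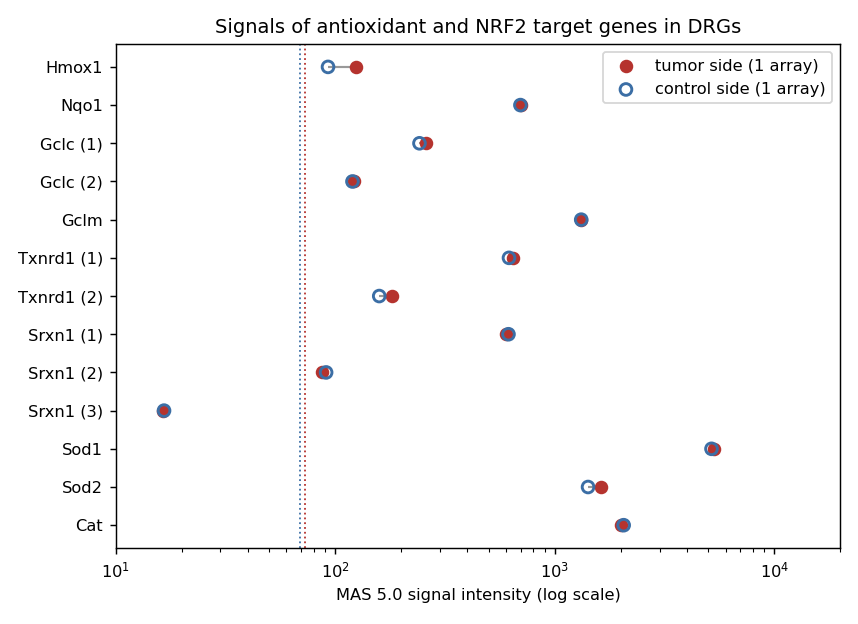
Signal intensity on a log scale of each probe set of the 9 genes, with filled points for the tumor-side array and open points for the control-side array. Numbers in brackets order the probe sets of 1 gene from bright to dim, and dotted lines mark the array medians of 72.7 on the tumor side and 69.0 on the control side. The pair of points is set apart most for Hmox1 (124 on the tumor side and 92.8 on the control side), and the points nearly coincide for Nqo1, Gclm and Cat.

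Hmox1 (gene ID 24451) encodes the inducible heme oxygenase, which opens the heme ring to biliverdin, iron and carbon monoxide and is among the most responsive NRF2 targets. Its only probe set had a signal of 124 on the tumor side and 92.8 on the control side, a log2 ratio of 0.42. This was the highest ratio of the 9 genes, and 3.55% of all genes above the signal rule had a higher one. Since ratios scatter more at low signal, the ratio was also set beside those of the 500 probe sets closest in mean signal. Of these, 38 (7.60%) had a higher ratio, and their central 95% ran from -0.42 to 0.55, which includes the value of Hmox1. Probe sets of the same gene at this brightness differed from each other with an SD of 0.24 on the log2 scale over 561 genes, so the ratio was less than 2 of these SDs from 0.

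Nqo1 (gene ID 24314), the quinone reductase that is widely used as a readout of NRF2, had a signal of 704 on the tumor side and 698 on the control side on its only probe set, which is of a type open to cross-hybridisation. The sides were nearly equal, with a log2 ratio of 0.01, and 74.4% of the 500 nearest probe sets had a higher ratio. Of these classical targets, Hmox1 thus had a log2 ratio of 0.42 and Nqo1 of 0.01, and that difference was not tested.

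The 2 genes of the enzyme that joins glutamate to cysteine, the limiting step of glutathione synthesis, were close to equal on both sides. Gclc (gene ID 25283) encodes the catalytic subunit and had a signal of 260.2 on the tumor side and 242 on the control side, a log2 ratio of 0.10. Its dimmer probe set had 122 on the tumor side and 119.9 on the control side, a log2 ratio of 0.02. Gclm (gene ID 29739) encodes the modifier subunit, which raises the activity of the catalytic one, and had 1314 on the tumor side and 1320.2 on the control side, a log2 ratio of -0.01. Both brighter probe sets lay inside the central 95% of the probe sets nearest to them in signal, from -0.23 to 0.51 for Gclc and from -0.10 to 0.28 for Gclm.

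The 2 genes of the thioredoxin and peroxiredoxin arm lay on opposite sides of 0, both within 5% of equality. Txnrd1 (gene ID 58819), the cytosolic thioredoxin reductase, had 648 on the tumor side and 619 on the control side on its brighter probe set, a log2 ratio of 0.07. Its dimmer probe set had 182 on the tumor side and 159 on the control side, a log2 ratio of 0.20. Both probe sets lay above 0, but on opposite sides of the median gene at 0.08. Srxn1 (gene ID 296271) encodes sulfiredoxin, which restores overoxidized peroxiredoxin, and was slightly lower on the tumor side on all 3 of its probe sets. The brightest had 599 on the tumor side and 616 on the control side, a log2 ratio of -0.04, the lowest of the 9 genes. The next had 86.9 on the tumor side and 91.0 on the control side, a log2 ratio of -0.07. The dimmest, below the signal rule, had 16.5 on the tumor side and 16.6 on the control side, a log2 ratio of -0.01. Of the nearest probe sets 87.6% had a higher ratio than the brightest one of Srxn1, whose value lay inside their central 95% from -0.13 to 0.35.

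The superoxide dismutases, which turn superoxide into hydrogen peroxide, differed by little. Sod2 (gene ID 24787), the manganese enzyme of mitochondria, had a signal of 1630.0 on the tumor side and 1418 on the control side, a log2 ratio of 0.20. Of the 500 nearest probe sets, 54 (10.8%) had a higher ratio, and their central 95% from -0.10 to 0.27 includes it. At this brightness probe sets of the same gene differed with an SD of 0.08 over 183 genes. The ratio was more than 2 of these SDs from 0, but only 0.12 above the median gene, less than 2 of them. Such SDs come from the same 2 arrays and hold no variation between animals or repeated arrays, so they are not a replicate error. Against the median gene, each with the SD at its own brightness, Hmox1 and Sod2 stood between 1 and 2 SDs above it. Cat and Gclm stood between 1 and 2 SDs below it, Gclm barely so. Srxn1, at -0.12 from the median gene with an SD of 0.12, fell just short of 1 SD. Sod1 (gene ID 24786), the copper and zinc enzyme of the cytosol that is abundant in neurons, had 5329 on the tumor side and 5174 on the control side, a log2 ratio of 0.04. Cat (gene ID 24248), the peroxisomal catalase that breaks down hydrogen peroxide, had 2012 on the tumor side and 2060.4 on the control side, a log2 ratio of -0.03. It was slightly lower, and 90.2% of the nearest probe sets had a higher ratio, the largest such share of the 9 genes, yet it lay inside their central 95% from -0.10 to 0.29.

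All 13 probe sets of the 9 genes lay inside the central 95% of the 500 probe sets nearest to each in signal, a range that 95% of the probe sets it is taken from hold by construction. In the 3 genes with several probe sets, these lay on the same side of 0, above it in Gclc and Txnrd1 and below it in Srxn1. Against the median gene at 0.08, only those of Srxn1 lay on the same side, below it. The brighter and the dimmer probe set stood at 0.02 and -0.06 from it in Gclc, and at -0.01 and 0.12 in Txnrd1.

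**Figure D2:**
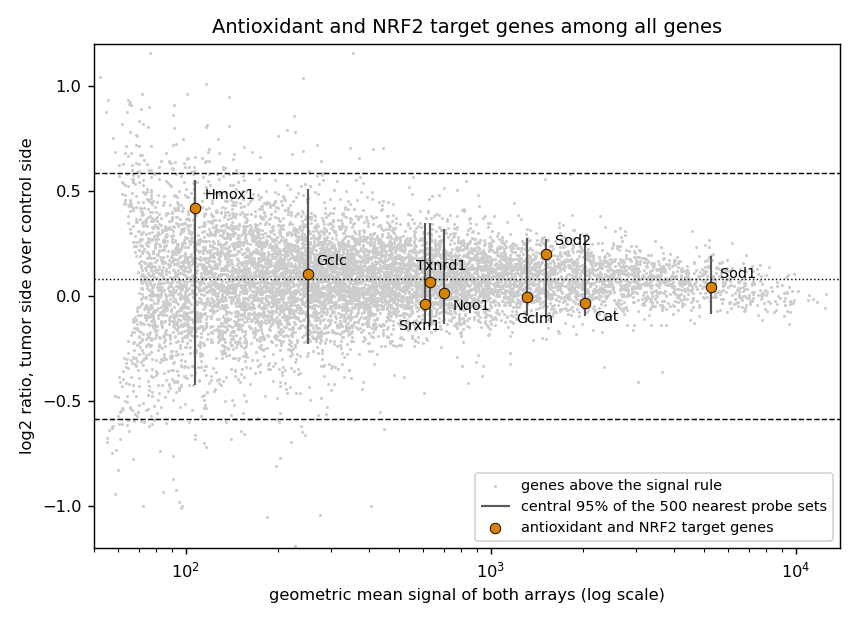
Log2 ratio (tumor side over control side) against signal on a log scale (geometric mean over the 2 arrays), 1 grey point per gene above the signal rule, with 21 genes outside the plotted range. Orange points are the brightest probe sets of the 9 genes, vertical bars the central 95% of the 500 probe sets nearest in signal, the dotted line the median gene (0.08) and dashed lines a fold of 1.5. All 9 orange points lie on their bars, with Hmox1 (0.42) highest.

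The genes at both ends of the order kept their places under the settings named here, several of which could not move them, while some signs depended on the scaling. Hmox1 had the highest, Sod2 the next and Srxn1 the lowest log2 ratio as deposited and under quantile normalization, median-centred log2 ratios, loess, a pseudocount, the mean over probe sets and without probe sets open to cross-hybridisation. Hmox1 ranged from 0.34 to 0.42 and Sod2 from 0.12 to 0.20 over these settings, whereas Srxn1 ranged from -0.13 to -0.04. Centring shifts every gene alike and cannot change the order. The choice of probe sets cannot move Hmox1 or Sod2, which have 1 each. As deposited, Srxn1 (-0.04) and Cat (-0.03) were close, beside an SD between probe sets of 0.12 at the brightness of Srxn1, so the lowest place is not a firm one. Nqo1, Sod1 and Txnrd1, slightly above 0 as deposited, were below 0 under quantile normalization, centring and loess, with lowest values of -0.08, -0.04 and -0.03. The median of the 9 genes turned as well, to between -0.04 and -0.02 under these 3 settings.

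**Figure D3:**
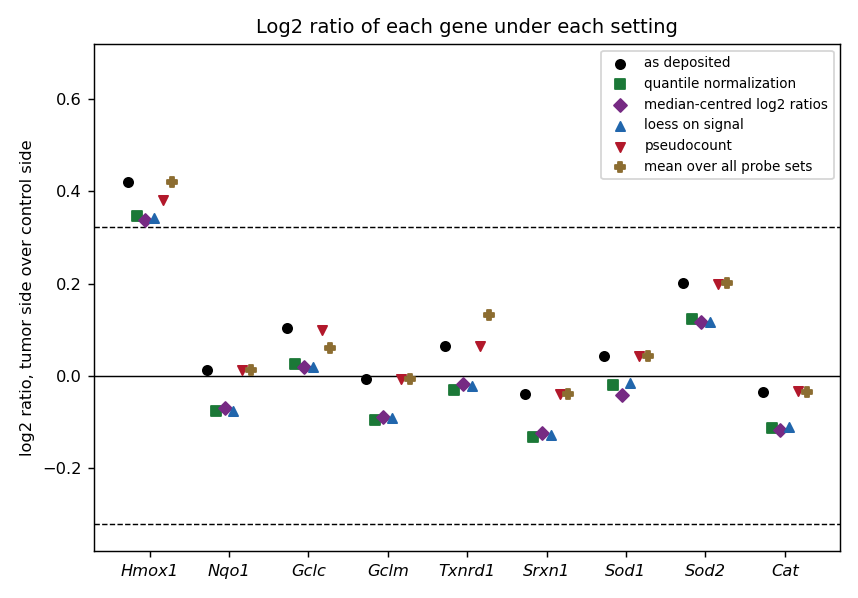
Log2 ratio (tumor side over control side) for each of the 9 genes under 6 settings, 1 symbol per setting, with dashed lines where 1 side is 25% higher. Hmox1 stays above the upper line under all 6 (0.34 to 0.42) and no other gene reaches it.

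The genes around NRF2 itself were looked at next, from lists of 84 further genes, of which 80 were measured and 69 were above the signal rule. None of the 69 differed by a fold of 1.5. A tumor-side signal at least 25% higher was found for 7 of the 69 (10.1%), beside 7.54% of all genes, and a control-side signal at least 25% higher for none, beside 3.01%. Their median log2 ratio was 0.10, beside 0.08 for all genes, and 39 of the 69 lay above the median gene. The 7 were reduced to 1, Gstm2, with quantile normalization, centring or loess, with Gstm2 just past the limit at 0.32, and Mafg then passed it in the other direction. Under these settings between 3.93% and 4.05% of all genes were at least 25% higher on the tumor side. Between 4.42% and 4.50% of all genes were at least 25% higher on the control side, so 1 gene in either direction is not above that background.

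Nfe2l2 had a signal of 1187 on the tumor side and 1024 on the control side, a log2 ratio of 0.21, and its promoter window holds the core. Keap1 had 336 on the tumor side and 356 on the control side, a log2 ratio of -0.08, while its dimmer probe set, below the rule, had 38.8 on the tumor side and 31.7 on the control side. Bach1 had 2.38 on the tumor side and 1.85 on the control side, below the highest signals of the trp control probe sets of a bacterial gene, 4.63 on the tumor side and 5.39 on the control side, so no direction is read from it. Nfe2l2 and Keap1 each lay inside the central 95% of the probe sets nearest in signal. Among 8 NRF2 regulators above the rule the median log2 ratio was 0.03. Mafg, a small MAF partner of NRF2, had 298 on the tumor side and 364 on the control side, a log2 ratio of -0.29, just outside the range of its nearest probe sets from -0.24 to 0.39. Its other probe set opposed it, with 101 on the tumor side and 76.0 on the control side, a log2 ratio of 0.41, and the mean of the 2 was 0.06. Rbx1, a subunit of the ligase that KEAP1 directs to NRF2, had 4207 on the tumor side and 3778 on the control side.

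Enzymes that make or use glutathione were mostly slightly higher on the tumor side. All 13 glutathione enzymes above the rule had a ratio above 0, as had 70.9% of all genes, and 11 of them lay above the median gene. The list median was 0.14 as deposited and between 0.05 and 0.06 under quantile normalization, centring and loess. Gss, which adds glycine in the final step of glutathione synthesis, had 247 on the tumor side and 194 on the control side (log2 ratio 0.35). Gpx3, the secreted glutathione peroxidase, had 181 on the tumor side and 140.4 on the control side (log2 ratio 0.36). These 2 were the glutathione enzymes at least 25% higher. Beside the 0.35 of Gss for the final step of synthesis, Gclc had 0.10 and Gclm -0.01 for the first. Glrx5, a mitochondrial glutaredoxin of iron-sulfur cluster assembly, had 1672 on the tumor side and 1389 on the control side, and Glrx3, a cytosolic one, had 6154 on the tumor side and 5819 on the control side.

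The glutathione transferases and detoxifying enzymes had 15 of 15 ratios above 0, beside the same 70.9% of all genes, and 11 above the median gene. Their median was 0.14 as deposited and between 0.06 and 0.08 under those 3 settings. Gstm2, at 194 on the tumor side and 146 on the control side, had the largest ratio among them (log2 ratio 0.41). Gsta4, a transferase with a preference for lipid peroxidation products, had 627 on the tumor side and 486 on the control side (log2 ratio 0.37), and Gstm5 had 867 on the tumor side and 691 on the control side (log2 ratio 0.33). Gsta4 and Gstm5 lay just above the central 95% of their nearest probe sets, which ended at 0.35 and 0.32. With Mafg they were the only 3 of the 69 genes (4.35%) outside that range. A central 95% leaves about that share outside by construction. Transferases of 1 family are close in sequence, so a probe set of 1 may also bind transcripts of another. Mgst3, a membrane-bound relative, had 4609 on the tumor side and 4177 on the control side.

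Among 15 partners in the thioredoxin and peroxiredoxin system the median log2 ratio was 0.08, beside 0.08 for all genes, and none was 25% higher on either side. Txnrd2, the mitochondrial counterpart of Txnrd1, had 109 on the tumor side and 87.7 on the control side (log2 ratio 0.31). Prdx4, the peroxiredoxin of the endoplasmic reticulum, had 1682 on the tumor side and 1399 on the control side (log2 ratio 0.27), and Txn2, mitochondrial thioredoxin, had 639 on the tumor side and 552 on the control side (log2 ratio 0.21). Txn1, cytosolic thioredoxin and the brightest of the list, had nearly equal signals of 9400.0 on the tumor side and 9299 on the control side. In the short list of copper and metal partners, with 5 genes above the rule, Ccs, the chaperone that loads copper into SOD1, had 336 on the tumor side and 264 on the control side (log2 ratio 0.35), beside 0.04 for Sod1 itself. Atox1, another copper carrier, had 989 on the tumor side and 906 on the control side. The metallothioneins Mt2A and Mt3 were slightly lower on the tumor side, Mt2A with 375 on the tumor side and 402 on the control side and Mt3 with 6020.4 on the tumor side and 6256 on the control side.

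Genes of heme and iron handling gave a median log2 ratio of 0.13 over 5 genes as deposited, and between 0.04 and 0.05 under quantile normalization, centring and loess. Blvra, the reductase that turns the biliverdin made by heme oxygenase into bilirubin, had 525 on the tumor side and 416 on the control side (log2 ratio 0.34), and its promoter window holds the core. The constitutive heme oxygenase Hmox2 had a log2 ratio of 0.13. Tfrc, the transferrin receptor that brings iron in, had 3932 on the tumor side and 3463 on the control side, and Slc40a1, ferroportin, which lets iron out, had 131 on the tumor side and 144 on the control side (log2 ratio -0.14). The dimmer probe sets of Slc40a1 had ratios of 0.04 and 0.42, so no direction is given for it. The ferritin genes Fth1 and Ftl1 had no probe set that names them alone and were left out. Enzymes that supply NADPH were near equality, with a median of -0.02 over 5 genes, from Pgd at 306 on the tumor side and 324 on the control side to Taldo1 at 1625 on the tumor side and 1513 on the control side, and Idh1 had 4632 on the tumor side and 4523 on the control side. Of the NADPH oxidase genes, which make superoxide in phagocytes, 3 were above the rule. Cybb, the catalytic subunit, had 357 on the tumor side and 297 on the control side, Cyba, its partner, had 195 on the tumor side and 175 on the control side, and Rac2 had 93.3 on the tumor side and 95.9 on the control side.

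Of the 80 genes, 11 were below the signal rule. Gstt1, Ncf1 and Gstm3 were those whose signals differed by a fold of 1.5 or more. The share of such genes among all genes below the rule was not counted, so no result is read from their number. Gstt1 had 41.3 on the tumor side and 18.8 on the control side, a log2 ratio of 1.13. It lay just inside the range of its nearest probe sets, from -1.02 to 1.15. Ncf1 had 11.6 on the tumor side and 4.29 on the control side, and Gstm3 had 0.99 on the tumor side and 3.06 on the control side. Both lay inside the wide ranges of their nearest probe sets, from -2.91 to 3.42 for Ncf1 and from -3.15 to 3.33 for Gstm3. The control-side signal of Ncf1 and both signals of Gstm3 did not exceed the brightest trp control on the same array, so no fold and no direction are read from these genes.

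**Figure D4:**
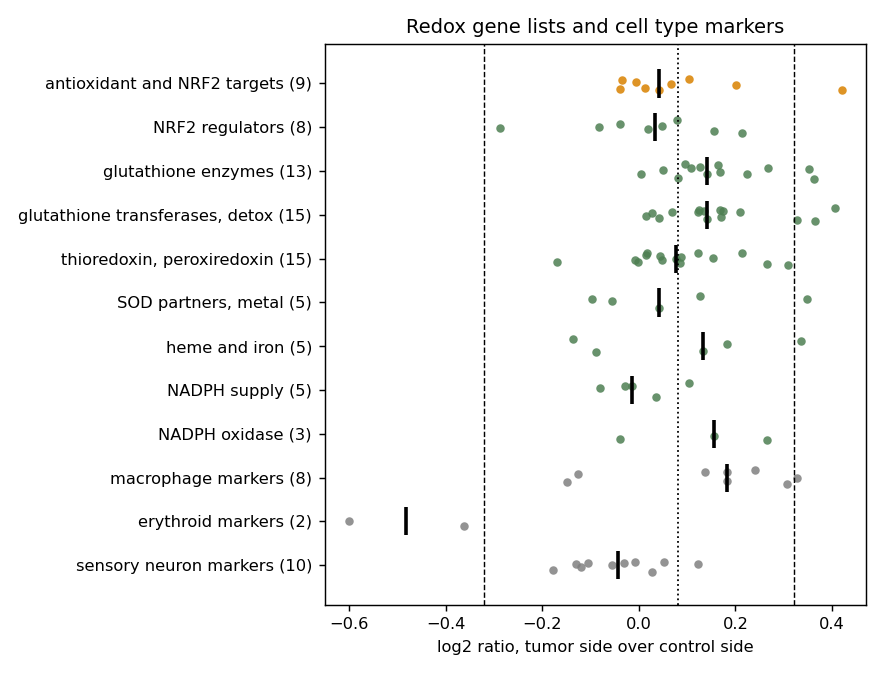
Log2 ratio (tumor side over control side) for genes above the signal rule, 1 point per gene and the number of genes in brackets, with orange for the 9 antioxidant and NRF2 target genes, green for the further redox lists and grey for cell type markers. Thick bars are list medians, the dotted line is the median of all genes (0.08) and dashed lines mark where 1 side is 25% higher. The redox lists lie between -0.29 (Mafg) and 0.42 (Hmox1).

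Over all genes with a window, those with the core did not have a larger median ratio than those without it. Hmox1 has no window, and Nqo1, Gclc and Srxn1 count as genes without the core, so the split does not sort NRF2 targets from other genes. Among the 9 genes, a window with the core was found for Sod2 (0.20), Txnrd1 (0.07) and Gclm (-0.01). Gclc (0.10), Sod1 (0.04), Nqo1 (0.01), Cat (-0.03) and Srxn1 (-0.04) had windows without the core. Of the further genes with a promoter window, 18 of 68 (26.5%) held it, beside 13.1% of all genes with a window. They too were chosen by what they encode, so the larger share can follow from the choice. Among the 18 genes, those above the signal rule had log2 ratios from -0.17 for Sesn2 to 0.34 for Blvra. Among all genes above the signal rule with a window, the median log2 ratio was 0.08 for 1236 genes with the core and 0.08 for 6865 genes without it, and 6.63% of those with it and 7.55% of those without it had a tumor-side signal at least 25% higher.

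Other cells in the ganglia can carry the same transcripts. Macrophages express Hmox1 strongly when they take up red cells, and of 9 macrophage markers, all measured, 8 were above the rule, with a median log2 ratio of 0.18 and a summed signal of 1878 on the tumor side and 1634 on the control side. Adgre1, a macrophage surface receptor, had 393 on the tumor side and 313 on the control side, while Cd68 had 79.6 on the tumor side and 88.3 on the control side. Of 9 listed red cell markers 4 were measured and 2, Hbb and Alas2, were above the rule, both lower on the tumor side. The list had a summed signal of 3317 on the tumor side and 4288 on the control side, mostly from Hbb, a hemoglobin chain, with 3207 on the tumor side and 4126 on the control side. SN markers had a median log2 ratio of -0.04 and Schwann cell markers of -0.02, and satellite glia markers of 0.14. Fibroblast markers had a median of 0.22, with 5 of 6 above the median gene and a summed signal of 26558 on the tumor side and 24385 on the control side, and endothelial markers had a median of 0.20 over 3 genes. Bone markers were higher (median 1.01, 5 genes) and those of skeletal muscle (median -1.78, 5 genes) and granulocytes (median -1.19, 3 genes) lower on the tumor side. No measured marker had a signal of 0, but a signal above 0 does not show that a transcript was present. Epb42, a red cell marker below the rule, had 3.46 on the tumor side, where the brightest trp control had 4.63. On the control side it had 6.16, where the brightest trp control had 5.39. The part of these other cell types in the ratios of Hmox1, Sod2 and the glutathione genes was not tested.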

How the data were processed

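Gene expression in DRGs was measured on 2 arrays, 1 for the tumor side and 1 for the control side. The authors analysed the scans with MAS 5.0 at default settings (the submitters' processing notes name MAS5), and the deposited values are signal intensity on a linear scale, background correction and probe summary included. No scaling target is stated in those sources, and the trimmed mean (2% left out at each end) was 5.98% higher on the tumor-side array. Dim probe sets scatter more, so ratios at low signal are less precise. Detection calls were not used. Probe sets were named through the platform annotation, where 20826 have 1 symbol, 436 several and 9780 none, and no symbol changed through gene identifiers in RefSeq (GRCr8). Log2 ratios were taken without a pseudocount.

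The genes and lists were chosen with earlier results of these data known. The text names all listed genes, Nfe2l2, Keap1 and Bach1, and from each further list the brightest gene and the 3 with the largest log2 ratios in size above the signal rule. Hmox2, Gstt1, Ncf1, Gstm3, Sesn2, Prph, Calca and Cd68 were chosen after their values were seen. Alternatives were quantile normalization, centring on the median, loess (span 0.3), a pseudocount of 11.1 (percentile 20 of all signals), the mean over probe sets, names ending in _x_at, _s_at or _a_at left out, no signal filter, both signals at or above the medians, and limits of 25% higher and of a fold of 2 in place of 1.5. Log2 ratios as deposited and under quantile normalization, centring and loess were tested on simulated data, with known changes placed in noise centred on 0. The other settings, the choice of probe sets, the ranges of nearest probe sets and the promoter search were not tested in this way. Ratios were computed in pandas 2.3.3 and numpy 2.4.6 and loess in statsmodels 0.14.6 under Python 3.11.15, with plots in matplotlib 3.10.9.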

Additional observations from a re-analysis of the deposited data

How the results depend on the processing

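No paired analysis was possible because there was a single array on each side. The count of 0 among the 9 genes past a fold of 1.5, in either direction, was the same under all 8 alternatives of scaling, filter and probe set choice and at a fold of 2, and became 1 higher, Hmox1, only with a limit of 25% higher. Without probe sets open to cross-hybridisation, Nqo1 has none and 8 genes are counted. Of the 69 further genes above the signal rule none passed a fold of 1.5. Without a signal filter, over 80 genes, 2 were higher and 1 lower, all below the rule and 2 of them (Ncf1 and Gstm3) with a signal on at least 1 side no brighter than the trp controls. The share of all genes past a fold of 1.5 without the filter was not counted. With the filter, 2 were lower (Idh1 and Cyba) with the mean over all probe sets, because of a dim probe set of each, and 7 were higher with a limit of 25%. Without the filter, 15% of the 80 were higher at that limit, beside 15.8% of all genes, and 1 was lower, beside 10.4% of all genes. The log2 ratios of the 9 genes were recomputed 53 times in all. They shifted by more than the SD between probe sets of a gene in 10 of these, in Gclm, Sod1, Sod2 and Cat under quantile normalization, centring or loess, which bring the median gene, at 0.08 as deposited, to about 0. Mafg and Keap1 turned their sign with the mean over probe sets, to 0.06 and 0.10. The number of arrays limits the precision, and ratios below the signal rule carry least weight.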
